A study of Homo sapiens with 8 samples.

Results

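The single-copy genes with a type 3 promoter are 8 short non-coding genes of RNA polymerase III: RMRP, RPPH1, RN7SK, the Y RNA genes RNY1, RNY3, RNY4 and RNY5, and TRU-TCA1-1. They were chosen by name. A listed region counted as theirs when it lay within 500 bp of the gene's hg19 position, or of the span from RNY5 to RNY1 for the Y RNA genes. This rule uses no measured value, though it was written with earlier results of these data known. Of the 8 genes, 3 had a region in at least 1 library, and these genes accounted for 8 of the 1222 regions listed over 4 libraries. The libraries are ChIP-seq with an antibody to POLR3A, the catalytic subunit of the enzyme, and 2 replicates were made from each of 2 human breast cancer lines. MDA-MB-231 is an established line, and MDA-LM2 is a subline of it that spreads more readily to other organs. The labels give no treatment other than fixation with formaldehyde, and the groups differ in cell line alone. The comparison asks where the enzyme binds differently in the 2 lines. The 4 matching input libraries were not analysed here.

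RNA polymerase III reads 3 classes of promoter. Most tRNA genes and the 5S rRNA genes carry their control elements inside the transcribed sequence. Type 3 genes instead carry them upstream, as a TATA box and a proximal sequence element that is bound by the SNAPc complex, often with a distal element bound by transcription activators, and they recruit a form of TFIIIB that contains BRF2. Their products include the RNA of RNase MRP (RMRP), the RNA of RNase P (RPPH1), the 7SK RNA that holds the elongation factor P-TEFb inactive (RN7SK), the Y RNAs that bind the Ro60 protein, and the selenocysteine tRNA (TRU-TCA1-1).

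The 4 lists differed greatly in length, with 646 regions in the first and 18 in the second MDA-MB-231 library, and 86 and 472 in the MDA-LM2 libraries. No source used here gives read totals, so depth is unknown. A gene without a region in the lists analysed here has no value, which is not a measured absence of the polymerase. The lists also offer no marker of the cell lines, so the labelled lines could not be checked against the data.

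RMRP was the only one of the 8 genes with a POLR3A region in every library. RN7SK was listed in 1 library of each line, TRU-TCA1-1 in 1 library of MDA-MB-231, and RPPH1 and the 4 Y RNA genes in none. By library, 3 of the 8 genes were listed in MDA-MB-231 replicate 1 (RMRP, RN7SK and TRU-TCA1-1) and 1 in MDA-MB-231 replicate 2 (RMRP). In MDA-LM2, 1 was listed in replicate 1 (RMRP) and 2 in replicate 2 (RMRP and RN7SK). The number of genes listed thus followed the length of the list at its longer end, and the cause was not tested.

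The difference between the lines in the number of these genes listed was smaller than the spread within them. On average 2 ± 1.41 genes (SD, n = 2 libraries) were listed in MDA-MB-231, compared with 1.5 ± 0.71 (SD, n = 2 libraries) in MDA-LM2, with an exact two-sided permutation p of 1. Comparing 2 libraries with 2 cannot give a p below 0.333. The difference, MDA-LM2 minus MDA-MB-231, was -0.5. With the first or the second MDA-MB-231 library left out it became 0.5 or -1.5, and with the first or the second MDA-LM2 library left out, 0 or -1. None of the 8 genes was listed in both libraries of one line and in neither library of the other. Over all 788 regions obtained by merging the lists, 0 (0%) were held by both MDA-MB-231 libraries only and 3 (0.381%) by both MDA-LM2 libraries only.

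RMRP lies on chromosome 9 at 35657748 to 35658015 in hg19, a gene of 268 bp whose product is the RNA of RNase MRP, an enzyme that processes precursors of ribosomal RNA. The gene is transcribed toward lower coordinates, so its start is the higher end. The region in MDA-MB-231 replicate 1 ran from 35657492 to 35658210, a width of 718 bp, and that in replicate 2 from 35657821 to 35657990, a width of 169 bp. In MDA-LM2 replicate 1 it ran from 35657704 to 35657995 (291 bp), and in replicate 2 from 35657591 to 35658071 (480 bp). The regions were nested from narrowest to widest, in the order MDA-MB-231 replicate 2, MDA-LM2 replicate 1, MDA-LM2 replicate 2 and MDA-MB-231 replicate 1. This was also the order of the lengths of the lists, and over the 10 regions that all libraries listed the median widths followed it too, at 171.5, 294.5, 482 and 643 bp. All 4 shared the interval from 35657821 to 35657990, which starts 25 bp inside the gene and ends 194 bp inside it. The gene was covered whole (100%) in the 2 long lists, 92.5% in MDA-LM2 replicate 1 and 63.4% in MDA-MB-231 replicate 2.

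Listing in every library was uncommon among all regions. Of the 788 merged regions, 10 (1.27%) were listed in all 4 libraries, and 57 (7.23%) in at least 3. Only places in the shortest list, of 18 regions, could be in all 4, so its length caps the first share. RMRP is 1 of those 10. Regions of like strength were set beside it for comparison. Of the 50 regions ranked nearest to RMRP by score in MDA-MB-231 replicate 1, 1 was also listed in MDA-MB-231 replicate 2 (2%, exact Clopper-Pearson 95% interval 0.051 to 10.6%). Of the same 50, 8 were listed in MDA-LM2 replicate 1 (16%, 7.17 to 29.1%) and 33 in MDA-LM2 replicate 2 (66%, 51.2 to 78.8%). Over all regions of MDA-MB-231 replicate 1, the corresponding shares were 2.48%, 9.75% and 46.7%. These shares start from the longest list, and a short list can hold few of its regions. Seen from the shortest list, sharing was the rule: of the 18 regions in the second MDA-MB-231 library, 16 (88.9%) recurred in the first, 10 (55.6%) in the first MDA-LM2 library and 16 (88.9%) in the second, RMRP among them each time. Among the 44 regions nearest to RMRP by score in MDA-LM2 replicate 1, 39 (88.6%) recurred in the first MDA-MB-231 library and 7 (15.9%) in the second. In the other MDA-LM2 library 31 (70.5%) recurred. Among the 50 nearest in MDA-LM2 replicate 2, 37 (74%) recurred in the first MDA-MB-231 library and 2 (4%) in the second. In MDA-LM2 replicate 1, 7 (14%) of these 50 recurred. The intervals cover counting error only, and the lists are of unequal length.

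By strength score the RMRP region was moderate in each list, and a second score placed it higher. The authors' strength score, a positive number that no source used here defines, was 20.0 and 13.8 in the first and second MDA-MB-231 libraries, and 11.1 and 16.5 in those of MDA-LM2. Since such a score ranks regions only within its own list, the values are not compared between libraries. By rank RMRP was 199th of 646, 8th of 18, 20th of 86 and 148th of 472, in the same order of libraries. The percentile, which is the share of the list's regions scoring no higher, was 69.3, 61.1, 77.9 and 68.9, so RMRP was above the middle of every list. The height of the signal at the highest position, a whole number that no source used here defines, was 28, 17, 15 and 27. In both MDA-MB-231 libraries this put RMRP near the middle of the list, where the median heights were 27 and 17. The height percentiles were 54.2, 66.7, 81.4 and 67.8, and regions of equal height count toward them. The lists hold a second score that looks like a log p-value and is more negative for stronger regions. It was -25.3, -14.7, -19.3 and -22.5 in the same order. By this score RMRP was 118th of 646, 6th of 18, 5th of 86 and 92nd of 472, a higher place than the strength score gave in each list. The percentiles by the second score were 81.9, 72.2, 95.3 and 80.7, so the place of RMRP depended on the measure.

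**Figure D1:**
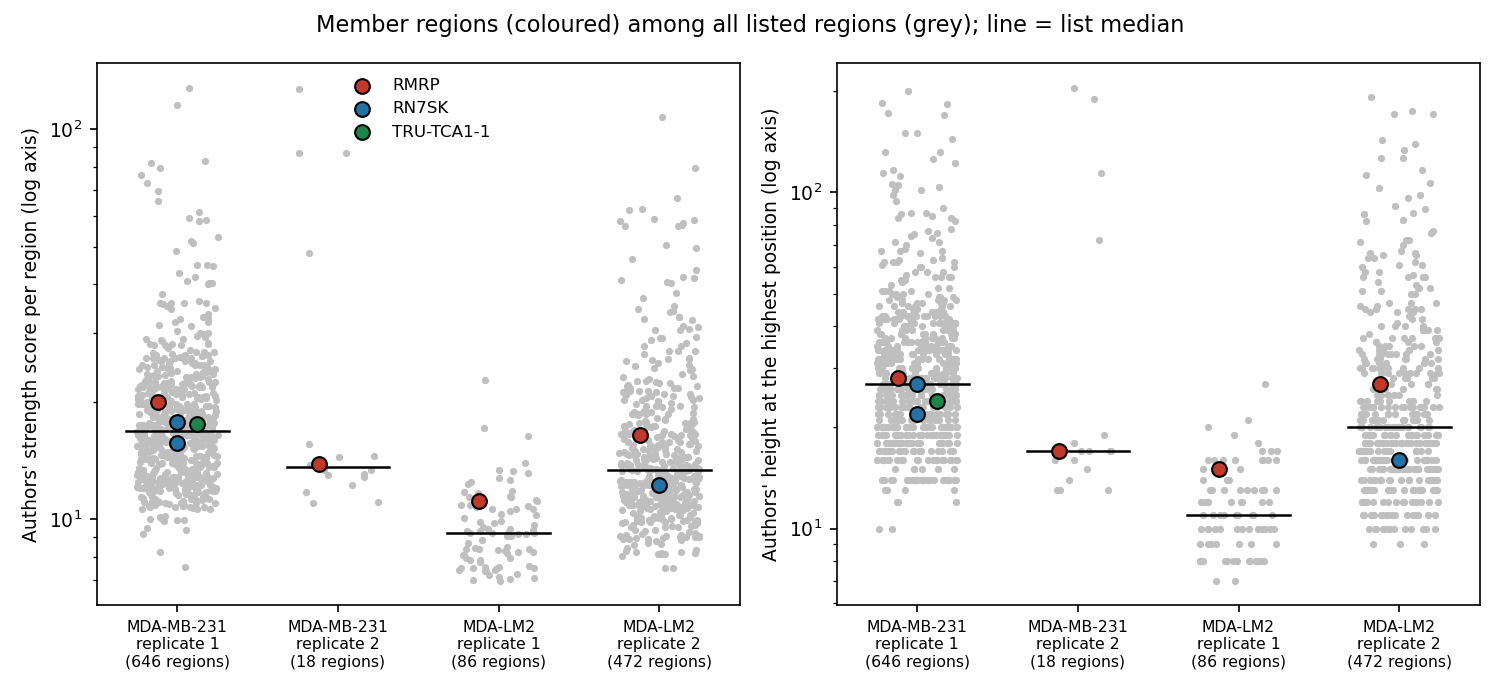
Strength score (left) and height at the highest position (right) of every listed region, on log axes, by library. Grey points are other regions, black lines are list medians over all regions, and coloured points are regions of RMRP, RN7SK and TRU-TCA1-1. The RMRP score lies above the median of each list, and the region at the 5' side of RN7SK lies below the median of both measures plotted in both libraries that list it (by the second score, not plotted, it lies above, at percentiles of 60.2 and 57.8).

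Among the 10 regions listed in all libraries, RMRP held different places in different lists. By score it was 9th of 10 in MDA-MB-231 replicate 1, where the 10 ran from 19.9 to 27.5 with a median of 24.7. It was 3rd in MDA-MB-231 replicate 2 (range 10.97 to 15.6, median 13.2). In MDA-LM2 it was 4th in replicate 1 (7.04 to 13.3, median 10.7) and 5th in replicate 2 (10.5 to 21.2, median 16.0). RMRP was thus low among these regions in 1 MDA-MB-231 library and in the upper part in the other. By height it was the lowest of the 10 in MDA-MB-231 replicate 1, with 28 against a median of 39.5, and was 3rd, 5th and 4th in the remaining libraries. No test between lines was made, because a rank within 1 list is no measure of change between lists.

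**Figure D2:**
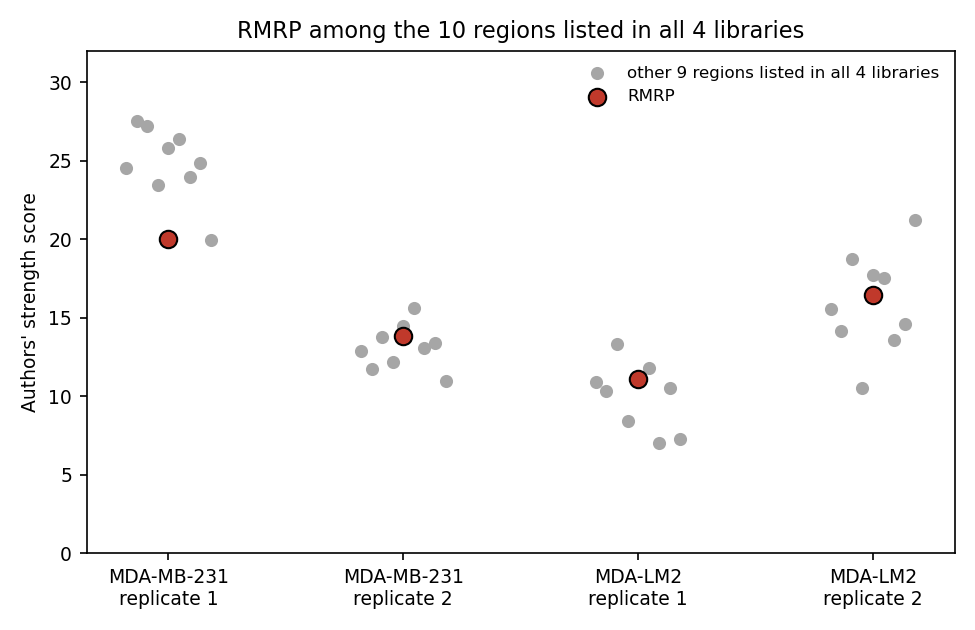
Strength score of the 10 regions listed in all 4 libraries, by library, on a linear axis that starts at 0. The red point is RMRP and grey points are the other 9. RMRP is 9th of the 10 in MDA-MB-231 replicate 1 and 3rd, 4th and 5th in the other libraries.

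The highest position of the RMRP region fell inside the gene in 3 libraries and just upstream of it in 1. Counted from the start of the gene, it was 124 bp downstream in MDA-MB-231 replicate 2, and 160 and 120 bp downstream in MDA-LM2 replicates 1 and 2. In MDA-MB-231 replicate 1 it was 32 bp upstream of the start, on the side where a type 3 promoter has its TATA box. Over all 4 libraries the range was 192 bp, near the median of the 10 shared regions (197 bp, from 57 to 842 bp). Without MDA-MB-231 replicate 1 it was 40 bp, the narrowest of the 10 (median 158.5 bp, up to 652 bp). No other library was left out in this way. Within MDA-MB-231 the 2 replicates lay 156 bp apart, and 75% of the 16 overlapping pairs of regions of these libraries were as close or closer. Within MDA-LM2 they lay 40 bp apart (37.5% of 56 pairs as close or closer). Between the lines, the highest position in MDA-MB-231 replicate 1 was 192 and 152 bp from those in MDA-LM2 replicates 1 and 2 (71.2% of 73 and 65.3% of 340 pairs as close or closer). For the second MDA-MB-231 library these distances were 36 and 4 bp (40% of 10 and 12.5% of 16 pairs). The distances between lines thus spanned those within lines. The chromatin had been sheared to fragments of 200 to 1000 bp, so distances of this size are at or below the fragment length. The middle of the region in MDA-MB-231 replicate 1 lay inside the gene, 164 bp from its start.

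**Figure D3:**
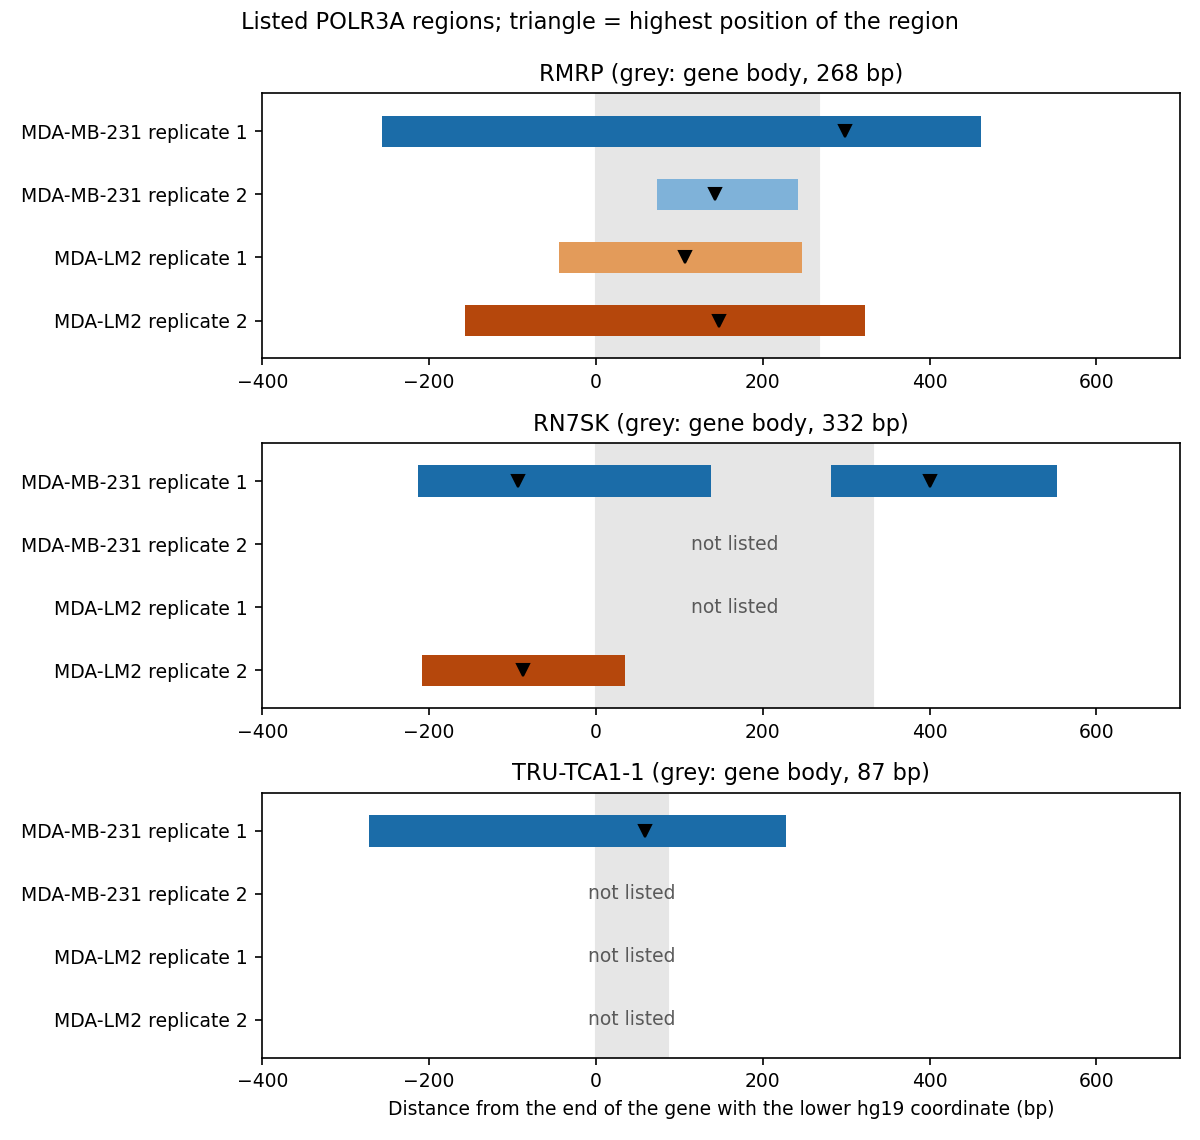
Listed regions at RMRP, RN7SK and TRU-TCA1-1 by library, drawn to scale from the end of each gene with the lower hg19 coordinate (x axis, bp). Bars are regions, triangles their highest positions and grey bands the genes, and RMRP is transcribed from right to left and RN7SK from left to right. The RMRP triangle lies outside the gene only in MDA-MB-231 replicate 1, and all 3 RN7SK triangles lie outside the gene. The distances of these triangles from the gene are below the length of the sheared fragments.

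RN7SK, the gene of the 7SK RNA, lies on chromosome 6 at 52860418 to 52860749 and is transcribed toward higher coordinates. It was listed in the 2 long lists, the first of MDA-MB-231 and the second of MDA-LM2, and in neither short list. Over all 788 merged regions, 220 (27.9%) were listed in just these 2 libraries, so this pattern was shared by more than 1 in 4. MDA-MB-231 replicate 1 held 2 separate regions, 1 over each end of the gene. The region at the 5' end ran from 52860205 to 52860556 and the one at the 3' end from 52860700 to 52860971. Between them lay 144 bp of the gene body that belonged to no region, from 138 to 282 bp after its first base. This gap is shorter than the sheared fragments, and its cause was not tested. Of the 623 pairs of consecutive regions on 1 chromosome in that list, 45 (7.22%) were as close to each other.

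The highest positions at RN7SK lay outside the gene on both sides. Their distances from the gene were below the length of the sheared fragments, so they cannot show that the polymerase itself lay outside the gene. The 5' region of MDA-MB-231 replicate 1 had its highest position 93 bp upstream of the gene's start, and the 3' region 70 bp beyond the gene's end, 494 bp apart. MDA-LM2 replicate 2 held 1 region, from 52860210 to 52860453, over the 5' end, with its highest position 88 bp upstream of the start. The upstream positions of the 2 lines differed by 5 bp, against a median of 78.5 bp over the 340 overlapping pairs of regions of these libraries, of which 14.7% were as close or closer. The lower edges of these 2 regions also lay close together, 213 and 208 bp before the gene. In MDA-LM2 replicate 2 the region reached 36 bp into the gene, 10.8% of its length. In MDA-MB-231 replicate 1 the 5' region covered 41.9% and the 3' region 15.1%.

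The 5' region of RN7SK was below the median of both lists by strength score and above it by the second score. It had a score of 15.6 in MDA-MB-231 replicate 1 (391st of 646, percentile 39.6) and 12.2 in MDA-LM2 replicate 2 (294th of 472, percentile 37.9). The heights were 22 and 16, at percentiles of 33.3 and 33.5. By the second score, -18.9 and -16.2, it was 258th of 646 and 200th of 472, at percentiles of 60.2 and 57.8, so its place in a list depended on the measure. The 3' region of MDA-MB-231 replicate 1 was the stronger of the 2, with a score of 17.8 (282nd of 646, percentile 56.5), a height of 27 and a second score of -22.2 (percentile 74.1). MDA-LM2 replicate 2, which listed the 5' side, held nothing at the 3' side. Of the 50 regions nearest to the 3' region in score in the MDA-MB-231 list, 24 were listed in MDA-LM2 replicate 2 (48%, exact 95% interval 33.7 to 62.6%), and of those nearest to the 5' region, 22 (44%, 29.99 to 58.7%). Close to 1 in 2 regions of either strength was thus found in that library. For the libraries that did not list RN7SK, 0 of the 50 regions nearest in score to either side were listed in MDA-MB-231 replicate 2 (exact upper limit 7.11%), and in MDA-LM2 replicate 1 there were 2 of 50 for the 5' side and 6 of 50 for the 3' side (4 and 12%).

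TRU-TCA1-1, the gene of the tRNA that carries selenocysteine, lies on chromosome 19 at 45981859 to 45981945 and is 87 bp long. Unlike other tRNA genes it depends on upstream elements of the type 3 kind. Only MDA-MB-231 replicate 1 listed it, with a region of 500 bp from 45981587 to 45982087 that covered the whole gene. The highest position lay inside the gene, 59 bp from its lower end and 27 bp from its higher end. Its score was 17.6 (294th of 646, percentile 54.6) and its height 24 (percentile 40.2), so it stood near the middle of the list. Of the 620 merged regions that hold a region of this library, 331 (53.4%) were listed in no other, so a listing in this library alone was the more common case. Of the 50 regions nearest to TRU-TCA1-1 in score, 4 were listed in MDA-LM2 replicate 1 (8%, exact 95% interval 2.22 to 19.2%), 22 in its replicate 2 (44%, 29.99 to 58.7%) and 0 in MDA-MB-231 replicate 2 (upper limit 7.11%). The absence of TRU-TCA1-1 from both MDA-LM2 lists therefore gives no difference between the lines, since the second MDA-MB-231 library did not list it either.

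RPPH1, on chromosome 14 at 20811207 to 20811844, gives the RNA subunit of RNase P, which trims the 5' ends of tRNA precursors and is related to the RNA of RMRP. No library listed a region within 500 bp of it. The nearest listed regions lay 265.6 kb away in MDA-MB-231 replicate 1, 2587 kb in replicate 2, and 269.995 and 266.3 kb in MDA-LM2 replicates 1 and 2. Both longer lists held 9 regions on chromosome 14. Of the genes of the 2 related RNase RNAs, RMRP was thus listed in 4 libraries and RPPH1 in 0 of 4. A gene that is not listed has no value here, so binding at the 2 genes could not be compared.

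The 4 Y RNA genes lie in 1 cluster on chromosome 7, in the span from 148638580 (RNY5) to 148684340 (RNY1). In the RefSeq table of GRCh38.p14 their order is RNY5, RNY4, RNY3 and RNY1, and RNY3 and RNY1 are direct neighbours. No library listed a region in the span or within 500 bp of it, so no region had to be divided among them. The nearest listed regions were 9613 kb away in MDA-MB-231 replicate 1, and 9613 kb in both MDA-LM2 replicates, and the one in MDA-MB-231 replicate 1 started at 139025298. MDA-MB-231 replicate 2 held no region on that chromosome, while the other lists held 13, 2 and 11 on it. Since RNY1, RNY3, RNY4 and RNY5 lie in 1 cluster, their absences may not be 4 independent observations.

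The listed genes stood megabases from the regions of any other place. They are single-copy genes chosen by name, so these distances describe where they lie in the genome and do not measure binding. In MDA-MB-231 replicate 1 the nearest other region lay 7.16 Mb from RMRP, 5.91 Mb from the RN7SK regions and 6.08 Mb from TRU-TCA1-1. The median distance from a region of this list to the next was 0.411 kb, and 4.81% and 5.89% of the 645 regions with another on the chromosome were as far from their neighbour as RMRP and TRU-TCA1-1 or farther. The RN7SK regions of this list have each other as nearest neighbours, 144 bp apart, so the 5.91 Mb is that of the pair and has no such share. In MDA-LM2 replicate 2 the distances were 31.1 Mb at RMRP and 5.91 Mb at RN7SK, where the list's median was 0.565 kb and 1.49% and 7.22% of 471 regions were as far or farther. In MDA-LM2 replicate 1 the RMRP region was 7.16 Mb from the next, and 23.2% of 82 regions were as far or farther. MDA-MB-231 replicate 2 listed no other region on chromosome 9.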

How the data were processed

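POLR3A ChIP-seq of MDA-MB-231 and MDA-LM2, 2 libraries each, was analysed from 1 deposited region list per library. Per the labels' protocols, cells were fixed in 1% formaldehyde for 10 minutes, chromatin was sheared to 200 to 1000 bp, and reads were 50 nt long. The submitters' processing notes name hg19, Bowtie2 2.2, bedtools and DESeq, without roles. The region caller, its threshold and the use of inputs are not stated in the labels or files. The lists carry no column names, so what each holds was inferred. The authors deposited a strength score and a second score that looks like a log p-value, the signal as a height at the highest position, and a percent that places this position in the region. Nothing says whether replicates were separate cultures, so their spread may be technical.

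Positions are printed as in the files, and whether they count from 0 or 1 is not stated. Widths and gaps are differences of the printed positions, while the covered share of a gene counts both end positions. The genes' hg19 positions belong to the rule that defines them, and directions of transcription are general knowledge. The RefSeq table of GRCh38.p14 matched 8 of 8 symbols and served for names and gene order, and its promoter table matched 0 of 8. Other type 3 genes (RNU6-1, RNU6-2, RNU6-7, RNU6-8, RNU6-9 and RNU6ATAC) were not placed, for lack of hg19 positions from a source.

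An overlap of 1 bp made regions shared, and overlapping regions were merged. Regions of like score were the 25 above and 25 below by rank, as far as the list went. Counts of genes were tested by exact permutation (two-sided), and shares have exact Clopper-Pearson 95% intervals. The code was tested on simulated lists. The rule named all 8 genes, and all are described whatever their values. Genes and comparisons were chosen with earlier results of these data known. The comparisons with regions of like score and with the 10 shared regions, and those of distances between highest positions and to the next region, were added after seeing the data. Python 3.11.15, NumPy 2.4.6, SciPy 1.17.1 and Matplotlib 3.10.9 were used.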

Additional observations from a re-analysis of the deposited data

How the results depend on the processing

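Taking a window of 0 or 1000 bp in place of 500 bp changed neither the genes counted nor the difference between lines of -0.5. With only the strongest 18 regions of each list, or the strongest 86, the number of genes listed in all 4 libraries fell from 1 to 0 in both cases, because RMRP ranks 199th of 646 and 148th of 472 in the long lists, and with 86 regions the difference between lines was 0. Leaving out 1 library at a time gave differences from -1.5 to 0.5, reversed at 0.5 without MDA-MB-231 replicate 1. The number of genes listed in MDA-MB-231 only ranged from 0 to 1, and the 1, TRU-TCA1-1, came without MDA-MB-231 replicate 2. RMRP was listed in all remaining libraries each time. With the replicate number as a block the difference was -0.5 (exact p = 1, smallest possible 0.5), with -2 for replicate 1 and 1 for replicate 2. Under a reciprocal overlap of 50%, the library pairs in which a gene's regions matched fell from 7 to 4 (RMRP from 6 to 3, RN7SK 1 in both), and over all regions overlapping pairs fell from 511 to 157. Ranking by height in place of score moved 5 of 8 percentiles beyond the replicate spread or the counting interval, by at most 15.2 points, the most at RMRP in MDA-MB-231 replicate 1. Among regions shared with another library, the 5' region of RN7SK in MDA-MB-231 replicate 1 fell to a percentile of 20.6 and RMRP there to 52.4. The middle of the TRU-TCA1-1 region lay at -22 bp from the gene's lower end, outside the gene, where the highest position lay at 59 bp inside it. Counting positions from 0 moved every distance by 1 bp.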
